A study of Gallus gallus with 24 samples.

Results

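The response of muscle RNA to 60 days of high-fat feeding was compared between muscles, in the breast muscle pectoralis major (PEM) and in the soleus (SOL), a leg muscle, of hens of the Guangyuan Grey chicken breed. Of the 24 RNA sequencing libraries of the study, the 16 from birds on a control diet (CONT) or on the high-fat diet for 60 days (LHFD) entered the comparison, 4 for each muscle and diet. The other 8, from birds given the high-fat diet for 15 days, helped only to choose the genes tested and to estimate the spread between libraries. The quantity of interest was the change from CONT to LHFD in SOL minus the change from CONT to LHFD in PEM, on log2(FPKM + 1), where FPKM are fragment numbers scaled to transcript length and library size. It was positive where SOL rose more or fell less than PEM. It was tested in 10944 genes that reached 1 FPKM in at least 4 of the 24 libraries.

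Per the labels, 270 hens aged 150 days were divided over the diets, all birds were killed at 210 days after 12 h of fasting, and both muscles came from the same 9 birds selected per diet. CONT birds received the normal diet and LHFD birds the high-fat diet, with no genetic or drug treatment in either. The SOL block was taken at the widest region of that muscle and the PEM block from its skin-facing side. The labels describe PEM as mostly fast glycolytic and SOL as a mixture of oxidative and glycolytic fibres. They call the 4 libraries of a group biological replicates. The sources used here do not tie libraries to birds, so each p-value reflects only how much these samples vary.

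Skeletal muscle holds fibres that differ in contraction speed and in fuel use. Slow oxidative fibres burn fatty acids in mitochondria, whereas fast glycolytic fibres break down glycogen and glucose. Fatty acids are sensed in muscle through nuclear receptors of the PPAR family, and excess fatty acids are stored as triglyceride or oxidised. AMP-activated kinase senses the energy state of the cell through AMP. Muscle also runs a circadian clock, in which PER and REV-ERB proteins repress the CLOCK and BMAL1 activators.

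The marker levels matched the labelled muscles on the slow side. The mean log2(FPKM + 1) of 19 slow-type sarcomere and calcium handling genes lay between 8.6 and 9.83 in the SOL libraries and between 2.50 and 3.91 in the PEM libraries. The 17 fast-type genes had means of 8.93 to 10.1 in SOL and 9.20 to 9.5 in PEM. The mean over this list was thus similar in both muscles, which does not show that each gene was. Mitochondrially encoded genes took 21.0% to 27.0% of the FPKM sum in SOL and 10.4% to 14.8% in PEM. Sums were 474667 to 523309 FPKM, and 9285 to 10590 genes reached 1 FPKM.

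A pair of PEM libraries stood apart. CONT_PEM 2, the library numbered 2 of the control PEM group, had a macrophage marker mean of 4.49 on the log2 scale against 1.84 to 2.26 in the other 3 of its group, and a lymphocyte marker mean of 3.32 against 1.56 to 1.81. LHFD_PEM 1 had a macrophage mean of 3.67 against 1.77 to 2.27 and a lymphocyte mean of 2.75 against 1.48 to 1.66. In SOL the macrophage means were 2.48 to 3.06 in all 8 libraries. Counts of calls over all genes are given with and without this pair, and calls of named genes within a muscle that were lost without it are stated. In bulk tissue, fewer cells of a type and less RNA per cell cannot be told apart.

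In both muscles the 60-day diet went with higher RNA of circadian repressors and of TET2, NR4A3 and BEST3, and with lower RNA of ACSL1, the enzyme that activates long-chain fatty acids. Over the 16 fits that left out 1 library, NR4A3 was called in both muscles in 4 and ACSL1 in 6, TET2 and BEST3 in all 16. In SOL 57 genes passed an adjusted p of 0.05, 0.521% of the genes tested, 25 higher (0.228%) and 32 lower (0.292%) under LHFD. In PEM 760 genes passed, 6.94% of those tested, 224 higher (2.05%) and 536 lower (4.9%). After quantile normalization the split in PEM was 318 higher and 343 lower. Without both PEM libraries that stood apart, 92 genes passed in SOL, 712 in PEM and 32 in both. The adjusted p-values come from limma with Benjamini-Hochberg correction over all 10944 genes and are two-sided.

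The genes called in both muscles numbered 25, 0.228% of those tested, and all 25 had the same sign in SOL and PEM, 14 higher and 11 lower. They were 43.9% of the SOL calls and 3.29% of the PEM calls. Their median absolute log2 change was 1.09 in SOL and 0.98 in PEM, and 10 of the 25 moved more in PEM. For 19 of the 25 the 95% interval of the difference between muscles lay inside −1 to 1 on the log2 scale. Across all genes tested, 80.2% had such an interval. The circadian genes PER3 and CIART were the 2 of the 25 whose difference reached an unadjusted p under 0.05.

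**Figure D1:**
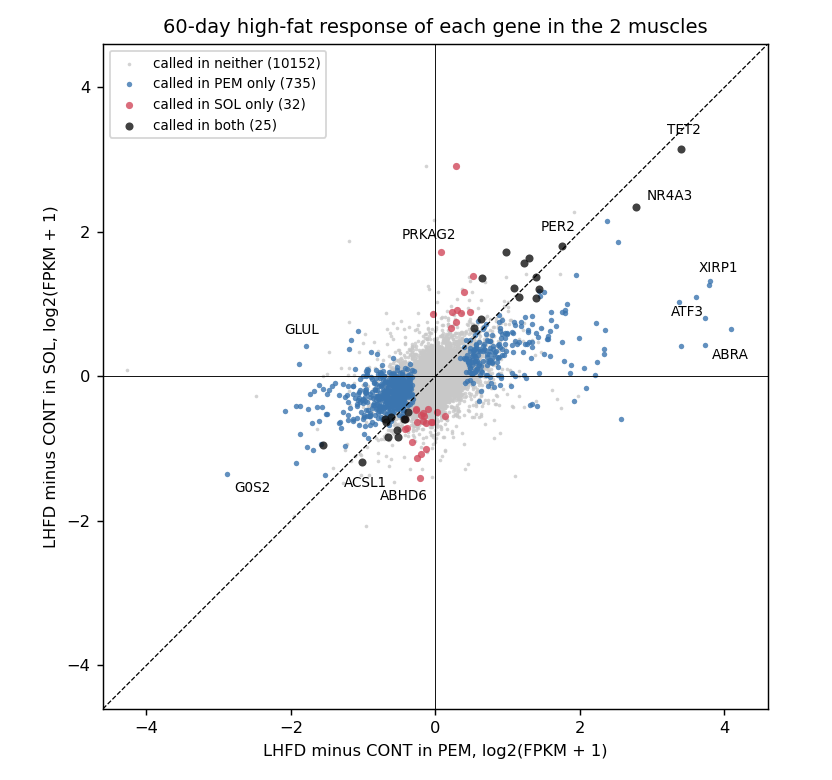
Change from CONT to LHFD in PEM (x axis) and in SOL (y axis) of the 10944 genes, on log2(FPKM + 1), with genes coloured by the muscle in which they were called; the dashed line marks equal change. The 25 genes called in both muscles lie at the lower left and upper right, and 716 of the 735 genes called in PEM only had the larger absolute change in PEM.

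Among the period genes, PER2, a repressor of CLOCK and BMAL1, was at 3.40, 3.67, 3.92 and 5.03 FPKM in the CONT libraries of SOL and at 20.8, 18.3, 16.2 and 11.7 under LHFD. In PEM it was at 4.12, 2.87, 3.70 and 2.38 under CONT and at 11.9, 18.7, 11.1 and 12.2 under LHFD. Every LHFD library was above every CONT library in both muscles. PER2 rose by 1.81 in SOL (95% interval 1.37 to 2.25, adjusted p = 6.73e-05) and by 1.75 in PEM (1.31 to 2.20, adjusted p = 0.00016), all on the log2(FPKM + 1) scale. The difference between muscles was 0.06 (−0.57 to 0.68, adjusted p = 0.999).

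NR1D2 encodes REV-ERB beta, a nuclear receptor that represses BMAL1. Its SOL values were 8.06, 11.8, 11.3 and 11.1 FPKM under CONT and 32.1, 29.3, 42.1 and 29.7 under LHFD. Its PEM values were 6.20, 7.06, 6.33 and 8.05 under CONT and 13.6, 17.3, 18.5 and 21.6 under LHFD. The diets did not overlap in either muscle, and the LHFD values were higher in SOL than in PEM. NR1D2 rose by 1.57 in SOL (adjusted p = 0.000374) and 1.23 in PEM (adjusted p = 0.00198), and the difference was 0.33 (−0.28 to 0.95).

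PER3, the other period gene called, was low in both muscles, at 0.648 to 1.13 FPKM in CONT and 3.12 to 4.37 in LHFD libraries of SOL and at 0.437 to 0.704 and 0.979 to 1.71 in PEM. CONT and LHFD values were apart in both muscles. It rose by 1.36 in SOL (adjusted p = 1.99e-05) and by 0.65 in PEM (adjusted p = 0.00737). The difference of 0.72 (0.31 to 1.12) had an unadjusted p of 0.00142 and an adjusted p of 0.37. ENSGALG00000053641, which the deposited annotation names CIART, a repressor of CLOCK and BMAL1, had the same pattern, with rises of 1.72 in SOL (adjusted p = 3.45e-05) and 0.98 in PEM (adjusted p = 0.00419) and a difference of 0.73 (0.17 to 1.29, adjusted p = 0.701). For genes this low, the pseudocount of 1 understates the fold change.

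Of the 15 clock genes tested, 4 rose and 1 fell in SOL and 3 rose in PEM, beside the shares of 0.521% and 6.94% over all genes. Those in PEM were PER2, PER3 and NR1D2. In SOL, NR1D1, which encodes REV-ERB alpha, also rose, by 0.92 (adjusted p = 0.0429). NPAS2, a partner of BMAL1 in the activating arm, fell by 0.64 (adjusted p = 0.018). In PEM their changes were 0.30 and −0.13, neither past the threshold. NPAS2 was low, at 1.94 to 2.24 FPKM under CONT and 0.778 to 1.28 under LHFD in SOL. In PEM it was at 0.32 to 0.826 and 0.317 to 0.494, where the pseudocount understates a change. The NR1D1 call was lost when any of 10 libraries was left out (every SOL library but CONT_SOL 1, and LHFD_PEM 2, CONT_PEM 3 and CONT_PEM 4; adjusted p up to 0.143), and the NPAS2 call without LHFD_SOL 1, 2 or 3 or CONT_SOL 1 (up to 0.0709).

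TET2, an enzyme that oxidises methylated cytosine in DNA, had the largest change of the shared genes. In SOL it was at 1.12, 1.10, 1.22 and 6.17 FPKM under CONT and at 23.9, 28.2, 18.1 and 30.4 under LHFD. In PEM it was at 0.723, 1.33, 1.24 and 0.782 under CONT and at 10.4, 32.6, 37.5 and 12.6 under LHFD. The lowest LHFD library exceeded the highest CONT library in both muscles, while the PEM libraries under LHFD fell into a lower and a higher pair. TET2 rose by 3.15 in SOL (adjusted p = 0.00214) and 3.40 in PEM (adjusted p = 0.000603). The difference of −0.25 had a wide interval of −1.68 to 1.17.

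BEST3, a member of the bestrophin family of chloride channels, was at 10.4, 14.1, 16.1 and 16 FPKM in CONT and 43.3, 37.8, 30.9 and 40.0 in LHFD libraries of SOL. The PEM values were 15.8, 9.36, 10.4 and 20.3 under CONT and 31.1, 45.9, 36.5 and 34.2 under LHFD. The diets did not overlap, and both the levels and the changes were close between muscles. BEST3 rose by 1.37 in SOL (adjusted p = 0.00126) and by 1.39 in PEM (adjusted p = 0.000696), with a difference of −0.02 (−0.61 to 0.58).

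NR4A3, an orphan nuclear receptor that is induced early after many stimuli, was at 37.2, 26.0, 29.5 and 34.9 FPKM under CONT and 115, 151, 118 and 358 under LHFD in SOL. In PEM it was at 0.951, 1.95, 1.73 and 15.6 under CONT and 19.7, 16.2, 54.3 and 27.9 under LHFD. The diets were apart in both muscles, although CONT_PEM 4 came close to the lowest LHFD library. The changes were 2.35 in SOL (adjusted p = 0.0464) and 2.77 in PEM (adjusted p = 0.00376), and the interval of the difference ran from −1.99 to 1.14. In SOL the call was lost without any 1 of 12 libraries (all 8 of SOL, LHFD_PEM 1, 2 and 4 and CONT_PEM 3), with adjusted p up to 0.133.

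RAD54L2, a helicase-like chromatin protein, rose by 1.64 in SOL (adjusted p = 0.00879) and 1.3 in PEM (adjusted p = 0.00965), with a difference of 0.35 (−0.51 to 1.2). Its SOL call was lost without LHFD_SOL 3 or CONT_SOL 1, with adjusted p up to 0.0537. FOXO6, a forkhead transcription factor, rose by 1.09 and 1.39 (adjusted p = 0.0257 and 0.00131), the former not without LHFD_SOL 1, 2 or 3 or CONT_SOL 1 or 2 (adjusted p up to 0.0845).

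ACSL1 was the shared gene with the highest level. It was at 208, 133, 250 and 303 FPKM under CONT and 91.1, 80.3, 114 and 93.1 under LHFD in SOL. The PEM libraries held 35.6, 27.7, 44.2 and 29.3 under CONT and 16.4, 12.2, 17.6 and 19.4 under LHFD. The diets did not overlap in either muscle, and ACSL1 was several times more abundant in SOL. It fell by 1.18 in SOL (adjusted p = 0.0369) and by 1.01 in PEM (adjusted p = 0.0186), and the difference was −0.17 (−0.92 to 0.58). The call in SOL was lost without any 1 SOL library but CONT_SOL 2 (adjusted p up to 0.112), and that in PEM without LHFD_PEM 2, CONT_PEM 1 or CONT_PEM 3 (up to 0.0746).

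PLPP3, a lipid phosphate phosphatase, also fell, by 0.84 in SOL (adjusted p = 0.00216) and 0.52 in PEM (adjusted p = 0.0189). The PEM call did not hold without LHFD_PEM 2, 3 or 4 or CONT_PEM 3 (adjusted p up to 0.0718). Smaller shared changes were found for PISD, which makes phosphatidylethanolamine in mitochondria (0.79 and 0.63 in SOL and PEM), SLTM, a nuclear RNA-binding protein (0.66 and 0.53), and ANKZF1, a ribosome quality control factor (−0.84 and −0.65). Each of these 3 genes lost its call in at least 1 muscle on leaving out single libraries. In SOL the call was lost without any 1 of 10 libraries for PISD, 8 for ANKZF1 and 7 for SLTM, with adjusted p up to 0.143. Over the 16 fits that left out 1 library, PISD was called in both muscles in 3, ANKZF1 in 3 and SLTM in 7. Without both PEM libraries that stood apart, the PEM calls of ANKZF1 and SLTM were lost (adjusted p = 0.0705 and 0.0652). Of the 25 shared genes, 8 were called in both muscles in every fit run, whichever library was left out. They were PER2, PER3, NR1D2, CIART, TET2 and BEST3 and a pair of genes without a symbol.

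**Figure D2:**
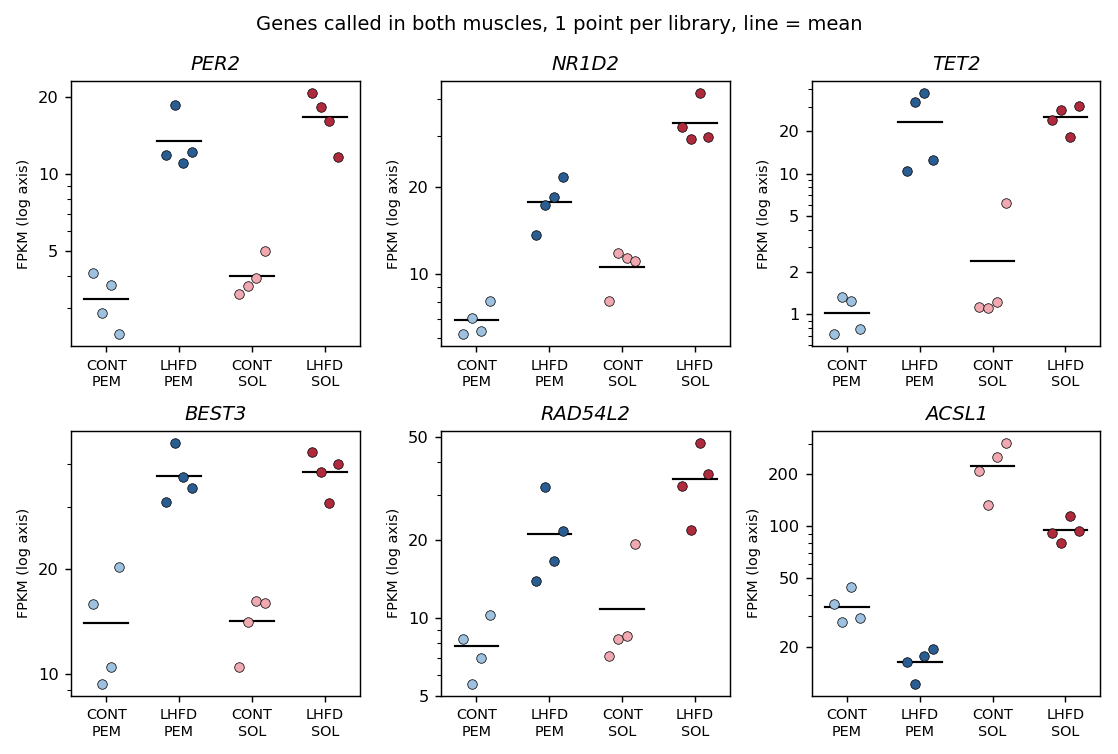
FPKM on a log axis of 6 genes called in both muscles, 1 point per library and a line at the mean of each group of 4. In each panel and each muscle the LHFD points lie apart from the CONT points, above them in 5 genes and below them in ACSL1.

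The direction of change was shared beyond these 25 genes. Of the 760 PEM calls, 697 (91.7%) had the same sign in SOL, and of the 57 SOL calls 54 (94.7%) had the same sign in PEM, against 69.9% of all genes. An unadjusted p under 0.05 was reached by 12% of the genes in SOL and 22% in PEM, and by 620 genes in both, of which 606 had the same sign. Across the 10944 genes, Pearson's r of the changes was 0.492 and Spearman's rank correlation 0.477, as a description, since genes are not independent and, per the labels, the muscles came from the same birds. Without CONT_PEM 2 r was 0.410.

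The changes spread more widely in PEM. Their SD across genes was 0.368 in PEM and 0.272 in SOL. The median standard error was 0.162 in either muscle, the same by design, since all groups share the estimate of the spread. It therefore does not show how noisy each muscle was. The mean correlation of a library with the others of its group was 0.943 to 0.972 in PEM and 0.973 to 0.981 in SOL. The part of this in the wider spread and in the larger number of calls in PEM was not tested. With a shared estimate of the spread, the numbers of calls in the muscles are therefore not strictly comparable. Among the 735 genes called in PEM only, the median absolute change was 0.62 in PEM and 0.26 in SOL, and 672 of them had the same sign in SOL. The 32 genes called in SOL only had medians of 0.72 in SOL and 0.22 in PEM. For 468 of the 735 (63.7%) and 18 of the 32 (56.2%), the 95% interval of the difference lay inside −1 to 1, against 80.2% of all genes. The difference had an unadjusted p under 0.05 in 278 of the 735 (37.8%) and 21 of the 32 (65.6%), against 5.67% of all genes, and passed the adjusted threshold in none. These genes were chosen by their change in 1 muscle, which is part of the difference, so the shares are a description.

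No gene passed the test of the difference between muscles after adjustment, 0% of the 10944 tested. The smallest adjusted p was 0.105. At an unadjusted p under 0.05 there were 620 genes, 5.67% of those tested and by coincidence the same number as above, 374 positive and 246 negative. Where no gene differs, a share of about 0.05 falls under this threshold, so counts among these genes are a description. The larger change was in PEM for 462 of these 620 and in SOL for 158. The median standard error of the difference was 0.229 and the median width of its 95% interval 0.95, so differences of the order of 1 on the log2 scale were near the limit of what 4 libraries a group could show. Without CONT_PEM 2, 9 genes passed and 1113 (10.2%) had an unadjusted p under 0.05, and without both PEM libraries that stood apart 8 genes passed. Without CONT_PEM 3, none passed and 509 (4.65%) had an unadjusted p under 0.05.

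The genes described next had the smallest p-values of the difference in each direction, and none of these differences passed the threshold. For single genes, refits of the difference are given below only where it passed. Other fits moved away from the threshold. The smallest adjusted p over all genes, 0.105 in the main fit, was 0.333 without CONT_SOL 3 and 0.208 without LHFD_PEM 3. It was 0.231 with the 16 CONT and LHFD libraries alone. Calls within a muscle are stated for each.

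MYOT encodes myotilin, a structural protein of the Z-disc that anchors actin filaments. It was at 50.4, 52.4, 35.7 and 42.4 FPKM in CONT and 84.8, 97.8, 131 and 156 in LHFD libraries of PEM. In SOL, where it was far more abundant, it was at 1038, 1179, 1881 and 1365 under CONT and 735, 1072, 926 and 1488 under LHFD. The diets did not overlap in PEM and overlapped in SOL. MYOT rose by 1.33 in PEM (adjusted p = 0.00178), and its SOL change was −0.38 (adjusted p = 0.534). The difference was −1.71 (−2.37 to −1.06, adjusted p = 0.106). It passed the threshold without CONT_PEM 2 (−1.79, adjusted p = 0.0328), without LHFD_SOL 4 (−1.90, adjusted p = 0.0397), without both PEM libraries that stood apart (−1.93, adjusted p = 0.0287) and after quantile normalization (−1.75, adjusted p = 0.0333).

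PRKAG2 encodes a regulatory gamma subunit of AMP-activated kinase, which binds AMP. It was at 7.13, 6.57, 7.28 and 17.5 FPKM under CONT and 33.7, 20.3, 44.9 and 32.4 under LHFD in SOL. In PEM all 8 libraries lay between 4.27 and 5.61, with the diets overlapping. PRKAG2 rose by 1.73 in SOL (adjusted p = 0.000374), and its PEM change was 0.08 (−0.40 to 0.56). The difference was 1.64 (0.96 to 2.32, adjusted p = 0.144). Without CONT_SOL 4, the CONT library at 17.5 FPKM, it was 1.95 with an adjusted p of 0.00193. The PRKAG2 difference passed in no other fit. NPC1 and IRF9 also passed without that library, at 1.46 (adjusted p = 0.0118) and 1.49 (adjusted p = 0.0235).

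A second kinase subunit, PRKAB1, was called in the other muscle. It was at 13.6, 15.2, 16 and 14.9 FPKM under CONT and 9.77, 5.57, 11 and 6.92 under LHFD in PEM, without overlap. Values in SOL were 6.44 to 10.2 and 8.93 to 11.7, with overlap. PRKAB1 fell by 0.81 in PEM (adjusted p = 0.00923), its SOL change was 0.31, and the difference was 1.12 (0.59 to 1.65, adjusted p = 0.268). For PRKAG3, the gamma subunit typical of glycolytic muscle in mammals, the changes were 0.74 in SOL and −0.58 in PEM, neither called.

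TTLL4, an enzyme that adds glutamate chains to tubulin, was at 12.6, 8.19, 16.1 and 13.9 FPKM under CONT and 4.31, 4.82, 4.53 and 5.23 under LHFD in PEM. Its SOL values, 2.81 to 3.64 under CONT and 1.95 to 3.16 under LHFD, overlapped. The PEM libraries under LHFD thus came close to the SOL levels. TTLL4 fell by 1.22 in PEM (adjusted p = 0.00016), its SOL change was −0.26, and the difference was 0.96 (0.52 to 1.41, adjusted p = 0.268; 1.14 with adjusted p = 0.0115 without CONT_PEM 2).

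TBC1D4, a RAB GTPase-activating protein that restrains glucose transporter vesicles in mammals, was at 30.6, 19.5, 57.0 and 30.9 FPKM under CONT and 13.3, 14.7, 14.1 and 15.4 under LHFD in PEM. The SOL libraries ranged from 15.8 to 25.1 and 18.9 to 26.5. The diets were apart in PEM and overlapped in SOL. TBC1D4 fell by 1.11 in PEM (adjusted p = 0.0032), its SOL change was 0.10, and the difference was 1.21 (0.61 to 1.81, adjusted p = 0.268; 1.44 with adjusted p = 0.0236 without CONT_PEM 2).

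EIF4EBP1, a repressor of translation initiation that mTORC1 inactivates, was at 201, 148, 201 and 238 FPKM under CONT and 122, 118, 99.2 and 118 under LHFD in PEM. The SOL values were 64.1 to 85.4 and 67.4 to 78.1, the LHFD range inside the CONT range. It fell by 0.76 in PEM (adjusted p = 0.00171), its SOL change was −0.02 (−0.28 to 0.24), and the difference was 0.74 (0.37 to 1.11, adjusted p = 0.268; 0.87 with adjusted p = 0.0328 without CONT_PEM 2).

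NPC1, which moves cholesterol out of lysosomes, was at 13.3, 10.8, 16.2 and 10.2 FPKM under CONT and 7.08, 5.64, 6.18 and 6.03 under LHFD in PEM, without overlap. Its SOL values were 7.00 to 16.1 and 10.8 to 14.9, with overlap. It fell by 0.90 in PEM (adjusted p = 0.00754), its SOL change was 0.34, and the difference was 1.23 (0.67 to 1.80, adjusted p = 0.268).

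On the negative side, PIK3C2B, a class II phosphoinositide kinase, was at 8.37, 11, 7.09 and 6.79 FPKM under CONT and 12.9, 14.9, 18.7 and 14.3 under LHFD in PEM. In SOL the ranges were 11.6 to 16.1 and 10.3 to 13.6. PEM under LHFD thus reached the range of SOL. It rose by 0.81 in PEM (adjusted p = 0.00152), its SOL change was −0.14, and the difference was −0.95 (−1.34 to −0.57, adjusted p = 0.144; −1.08 with adjusted p = 0.0115 without CONT_PEM 2).

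TIPARP, an ADP-ribosyltransferase induced through the aryl hydrocarbon receptor in mammals, was at 6.52, 7.91, 6.65 and 13.8 FPKM under CONT and 17.7, 19.8, 33.6 and 20.1 under LHFD in PEM. The SOL libraries held 6.85 to 17.1 and 7.79 to 10.9. The diets were apart in PEM and overlapped in SOL. It rose by 1.31 in PEM (adjusted p = 0.00639), its SOL change was −0.39, and the difference was −1.70 (−2.50 to −0.90, adjusted p = 0.268).

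The phosphatases DUSP8 and DUSP10, which inactivate stress-activated MAP kinases, both rose in PEM. DUSP8 was at 7.64, 8.86, 7.52 and 34.4 FPKM under CONT and 56.9, 80.2, 51.2 and 47.8 under LHFD in PEM, and at 33.2 to 47.6 and 26.8 to 56.7 in SOL. CONT_PEM 4 lay well above the other PEM controls. DUSP8 rose by 2.21 in PEM (adjusted p = 0.00202), with 0.02 in SOL and a difference of −2.19 (−3.30 to −1.09, adjusted p = 0.268), which became −2.69 (adjusted p = 0.0212) without CONT_PEM 4. DUSP10 rose by 1.33 in PEM (adjusted p = 0.00016), and its SOL change was 0.41 (0.08 to 0.74, adjusted p = 0.292).

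ABHD6, a hydrolase of monoacylglycerol, was called in SOL. It was at 11, 7.55, 9.74 and 10.6 FPKM under CONT and 2.75, 2.87, 2.70 and 3.81 under LHFD there. The PEM values were 0.859 to 2.02 and 0.781 to 1.26, with overlap, and all PEM values were below those of SOL. ABHD6 fell by 1.41 in SOL (adjusted p = 0.00054), its PEM change was −0.21, and the difference was −1.2 (−1.77 to −0.62, adjusted p = 0.268). On the log2(FPKM + 1) scale a change of a gene as low as ABHD6 in PEM is understated.

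The smallest p of all belonged to ENSGALG00000051520, which has no name in the deposited annotation and was singled out after its values were seen. It was at 2.09, 2.29, 1.72 and 2.03 FPKM under CONT and 18.9, 18.1, 14.1 and 45.0 under LHFD in SOL, and at 0.512 to 2.25 and 0.775 to 3.85 in PEM. The diets were apart in SOL and overlapped in PEM. It rose by 2.90 in SOL (adjusted p = 3.45e-05), its PEM change was 0.29, and the difference was 2.62 (1.67 to 3.57, adjusted p = 0.105). The difference passed after quantile normalization (2.79, adjusted p = 0.0241), without LHFD_PEM 4 (2.94, adjusted p = 0.0046) and without CONT_PEM 2 (2.39, adjusted p = 0.0356).

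**Figure D3:**
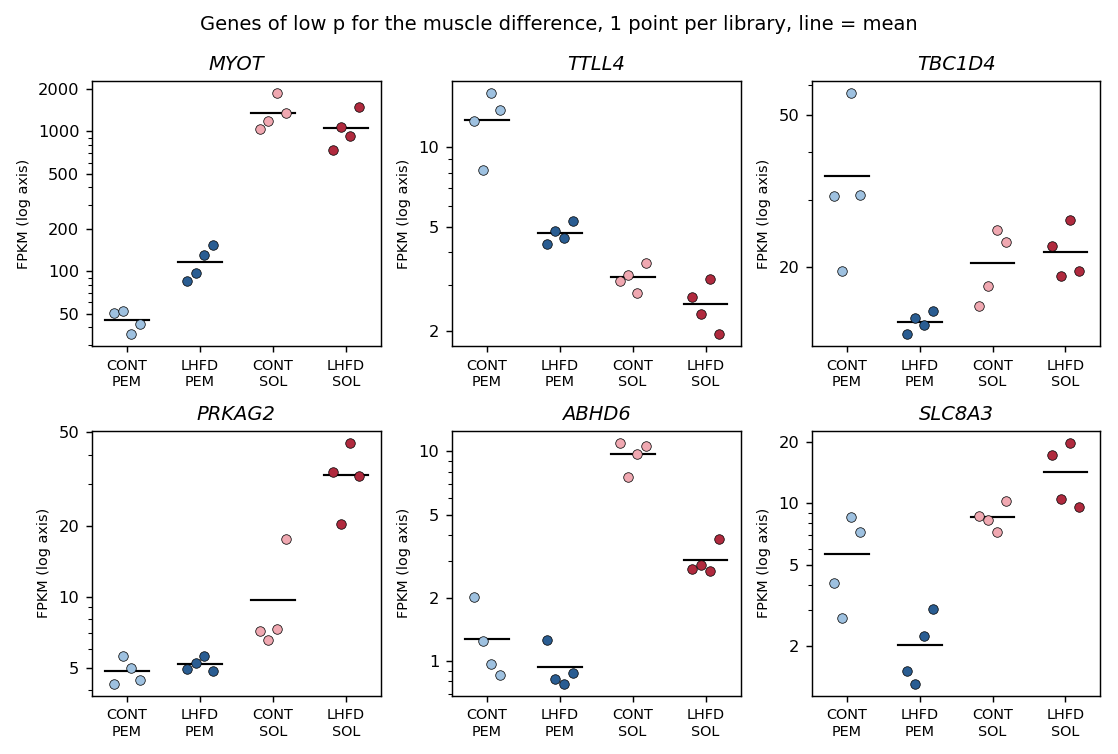
FPKM on a log axis of 6 of the 16 genes named for the smallest p-values of the muscle difference, 8 in each direction, 1 point per library and a line at the mean of each group of 4. MYOT, TTLL4 and TBC1D4 have separate diets in PEM and overlapping ones in SOL, PRKAG2 and ABHD6 the reverse, and SLC8A3 has mean changes of opposite sign.

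**Figure D4:**
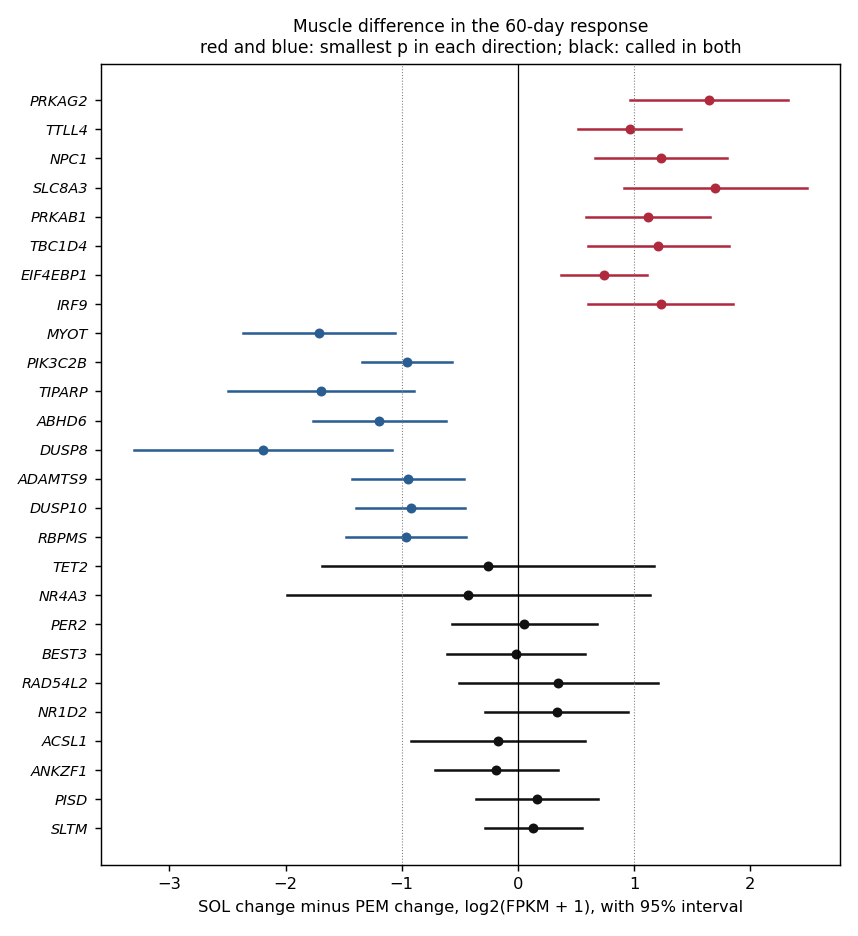
Change in SOL minus change in PEM on log2(FPKM + 1), with its 95% interval, for the 8 genes of smallest p in each direction and the 10 shared genes of largest change; dotted lines mark −1 and 1. The intervals of the 16 genes exclude 0 before adjustment, and those of the 10 shared genes include it. The shared genes PER3 and CIART, whose intervals exclude 0, are not plotted.

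Few genes had changes of opposite sign that each reached an unadjusted p under 0.05. Of the 620 genes at that level in both muscles, 14 had opposite signs, 10 positive in SOL and 4 negative, and in none was the change called in SOL. Of the 620 chosen instead by an unadjusted p under 0.05 of the difference, 349 had opposite signs and 271 the same. Over all genes tested, 69.9% had the same sign. Opposite signs widen a difference, so these counts are a description. SLC8A3, a sodium-calcium exchanger, was at 8.63, 8.28, 7.23 and 10.3 FPKM under CONT and 17.4, 10.5, 19.8 and 9.62 under LHFD in SOL. In PEM it was at 4.06, 2.75, 8.57 and 7.26 under CONT and 1.51, 1.3, 2.25 and 3.02 under LHFD. The diets overlapped in both muscles. Its PEM change of −1.08 was called (adjusted p = 0.0177), though not without LHFD_PEM 2, CONT_PEM 3 or CONT_PEM 4 (adjusted p up to 0.0778), and its SOL change was 0.62 (adjusted p = 0.349). The difference was 1.70 (0.91 to 2.49, adjusted p = 0.268), and 1.94 (adjusted p = 0.0328) without CONT_PEM 2.

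IRF9, named here as in the symbol column although the pathway annotation beside it reads IRF4, another interferon regulatory factor, had changes of 0.60 in SOL and −0.63 in PEM. ANK2, a membrane scaffold, had −0.56 and 0.61, and RBPMS, an RNA-binding protein, had −0.41 and 0.56. ADAMTS9, a secreted metalloprotease, had −0.34 in SOL and rose by 0.60 in PEM (adjusted p = 0.027), a call lost without LHFD_PEM 3 or 4 or CONT_PEM 1 or 3 (adjusted p up to 0.105). TMEM182, a muscle membrane protein, had 0.33 and −0.39, and NEO1, PPM1L and AP3S1 had 0.38, 0.46 and 0.40 in SOL against −0.37, −0.42 and −0.32 in PEM. None of these differences passed the threshold in the fit of all libraries.

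The gene groups below are compared by counts and medians of the log2 change, to be read beside medians of −0.06 in SOL, −0.08 in PEM and 0.02 for the difference over all genes, and beside 0.521% called in SOL and 6.94% in PEM. Counts of signs are to be read beside 4999 negative and 5945 positive differences over all 10944 genes, and genes of a list are not independent.

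Immediate early genes, which are transcribed within minutes of a stimulus, had the widest gap between the muscles' medians of the lists plotted. Of 25 tested, 6 rose in PEM and 1, NR4A3, in SOL, with medians of 0.82 and 0.08 and of −0.83 for the difference. ATF3, a stress-induced repressor, was at 20.8, 15.6, 8.17 and 23.7 FPKM under CONT and 168, 178, 296 and 200 under LHFD in PEM. SOL libraries held 113, 91.5, 17.2 and 18.2 under CONT and 109, 152, 42.4 and 106 under LHFD. The SOL controls thus spread over a wide range that overlapped the LHFD libraries. ATF3 rose by 3.61 in PEM (adjusted p = 0.00534), its SOL change was 1.10 (−0.41 to 2.62), and the interval of the difference, −4.65 to −0.35, was wide. KLF6, FOSL2 and NR4A1 rose by 1.5, 1.56 and 1.33 in PEM (adjusted p = 0.00657, 0.00719 and 0.00841), with SOL changes of 0.32, 0.55 and 0.47.

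Of 20 Z-disc and load-responsive proteins tested, 6 rose in PEM and none was called in SOL. The medians were 0.48 in PEM, −0.01 in SOL and −0.63 for the difference. XIRP1, an actin-binding repair protein, was at 17.2, 15.8, 12.2 and 31.7 FPKM under CONT and 198, 289, 421 and 197 under LHFD in PEM. In SOL it was at 84.8, 78.0, 76.3 and 40.4 under CONT and 143, 246, 73.5 and 272 under LHFD. PEM started below SOL and reached its LHFD range. XIRP1 rose by 3.79 in PEM (adjusted p = 0.000669), with 1.26 (0.12 to 2.40, adjusted p = 0.35) in SOL. KLHL40, a stabiliser of thin filaments, rose by 3.37 in PEM (adjusted p = 0.00152) and SYNPO2L, a Z-disc protein, by 1.21 (adjusted p = 0.00267), with 1.03 and 0.34 in SOL. ANKRD1, a titin-binding repeat protein, rose by 3.73 in PEM (adjusted p = 0.0141, but 0.0585 without CONT_PEM 3), and SMPX by 1.25 (adjusted p = 0.0449, lost without any 1 of 12 libraries, up to 0.152).

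Further large rises in PEM were those of ABRA, an actin-binding protein of striated muscle, by 3.73 (adjusted p = 0.00233; SOL change 0.44), and RRAD, a small GTPase, by 3.40 (adjusted p = 0.0159; SOL change 0.43). The RRAD call was lost without CONT_PEM 1 or 3 (up to 0.0596) and without both PEM libraries that stood apart. Library CONT_PEM 4 held RRAD at 19.0 FPKM where the other PEM controls were at 0.353 to 1.07. The largest falls in PEM, beside G0S2 and ASB2 below, were those of CA12, a carbonic anhydrase, by 2.08 (adjusted p = 0.0186), ALPK1, an innate immune kinase, by 1.93 (adjusted p = 0.00336), and GADD45G, a stress-induced growth arrest gene, by 1.88 (adjusted p = 0.0136). Their SOL changes were −0.48, −0.41 and 0.18. In SOL, CA12 was at 0.132 to 1.02 FPKM under CONT and 0 to 0.389 under LHFD. ALPK1 was at 0.599 to 1.29 and 0.161 to 0.566 there. At levels this low, the pseudocount of 1 understates the SOL changes of CA12 and ALPK1. CA12 lost its call without LHFD_PEM 1 or CONT_PEM 1, 3 or 4 (up to 0.0778). In SOL the largest falls, beside ABHD6, ACSL1 and GPAT3, were those of VOPP1, a vesicular protein, by 1.08 and SLC5A6, a vitamin transporter, by 0.91 (adjusted p = 0.0374 and 0.0342), with −0.20 and −0.32 in PEM. VOPP1 in PEM was at 0.252 to 0.648 FPKM under CONT and 0.104 to 0.391 under LHFD, so its change there is understated. VOPP1 lost its call without LHFD_SOL 1, 2 or 3 or CONT_SOL 1, 3 or 4 and SLC5A6 without LHFD_SOL 1, 2 or 4 or CONT_SOL 1, 3 or 4 (up to 0.136).

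Slow-type sarcomere genes had medians of −0.36 in SOL and 0.24 in PEM, and of −0.72 for the difference, with a negative difference in 16 of the 19 tested. None was called in either muscle. Mean levels of the list in SOL were 9.17 to 9.77 under CONT and 8.69, 8.94, 8.6 and 9.83 under LHFD. LHFD_SOL 4 thus lay above every SOL control and the other LHFD libraries of SOL below. The SOL median ranged from −0.70 to −0.16 over the fits that left out 1 library. The median difference was −0.43 without both PEM libraries that stood apart, and it ranged from −1.16 to −0.47 over the 16 fits that left out 1 library, the former without CONT_PEM 1. PLN, the inhibitor of the calcium pump, was at 1165, 1066, 2393 and 1735 FPKM under CONT and 470, 862, 835 and 1759 under LHFD in SOL. In PEM it did not exceed 4.33, with LHFD values of 4.33, 1.01, 2.98 and 1.41 and CONT values of 2.24, 1.14, 0.0929 and 0.139. PLN was thus nearly confined to SOL, and its PEM change is one of very low values. Its difference was −1.67 (−2.88 to −0.46, adjusted p = 0.653). For MYOZ2 and LMOD2, a calcineurin-binding Z-disc protein and a thin-filament nucleator, the differences were −1.13 and −1.09, also with PEM values near 0.

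The fast-type genes had medians of 0.36 in SOL and −0.04 in PEM, and 1 of 17 was called, in PEM. Their median difference was 0.33, and 0.12 without CONT_SOL 3. MYLK2, the myosin light chain kinase of skeletal muscle, had the smallest p of the difference, 0.76 (0.15 to 1.37, adjusted p = 0.749).

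In the TCA cycle and oxidative phosphorylation lists the intervals of the difference were narrow. All 22 genes of the TCA cycle and pyruvate entry, all 54 nuclear-encoded oxidative phosphorylation genes and all 13 mitochondrially encoded genes had an interval of the difference inside −1 to 1, against 80.2% of all genes, and none of them was called in either muscle. Their median differences were 0.02, 0.08 and −0.08. Of 21 genes of glycogen breakdown and glycolysis, 1 was called, in PEM, and 9 had such an interval, as did 17 of the 24 genes of fatty acid oxidation and fuel switch. Both are smaller shares than that over all genes. The cytosolic ribosomal proteins had no call among 63, and 60 of them had such an interval. Of the 54 oxidative phosphorylation genes, 51 had a negative change in PEM and 34 in SOL. Over all 10944 genes, 6925 were negative in PEM and 6692 in SOL. The difference was positive in 42 of the 54 and negative in 12, against 5945 and 4999 over all genes.

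In lipid handling the calls were mostly falls in PEM. Of 21 genes of fatty acid uptake, binding, droplets and lipolysis, 4 fell in PEM and 1, ACSL1, in SOL. G0S2, an inhibitor of the triglyceride lipase ATGL, was at 40.2, 89.2, 105 and 70.4 FPKM under CONT and 37.8, 9.45, 3.65 and 4.03 under LHFD in PEM. Its values in SOL were 32.0, 74.8, 47.1 and 21.4 under CONT and 19.8, 22.5, 12.5 and 8.71 under LHFD. The diets were apart in PEM, narrowly so for LHFD_PEM 1, and overlapped in SOL. G0S2 fell by 2.88 in PEM (adjusted p = 0.00258), with −1.35 (−2.41 to −0.29, adjusted p = 0.267) in SOL. SLC27A1, a fatty acid transporter, fell by 1.87 in PEM (adjusted p = 0.00775; SOL −0.41). VLDLR, a lipoprotein receptor, fell by 0.64 in PEM (adjusted p = 0.0242; SOL −0.03), a call lost without LHFD_PEM 2, CONT_PEM 1 or CONT_PEM 3 (up to 0.106).

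The called enzymes among those that build triglyceride from glycerol phosphate passed the threshold in different muscles, without a called difference between muscles. GPAT3, the first step, fell in SOL by 1.12 (adjusted p = 0.018), with −0.26 in PEM and a difference of −0.87 (−1.51 to −0.23, adjusted p = 0.671). AGPAT2, the next step, fell by 1.78 in PEM (adjusted p = 0.000515), and its SOL change of −0.98 had an adjusted p of 0.0732. LPIN1, a phosphatidate phosphatase, fell by 1.52 in PEM (adjusted p = 0.00258; SOL −0.52). Although not called in SOL, both had separate diets there. AGPAT2 was at 17.7 to 22.2 FPKM under CONT and 7.22 to 12.5 under LHFD in SOL, and LPIN1 at 17.7 to 21.6 and 10.3 to 15.5. GPAT3 in PEM overlapped, at 7.45 to 14.9 and 6.59 to 9.76. DGAT2, the last step, was at 35.2, 28.5, 29.9 and 45.4 FPKM under CONT and 7.72, 8, 6.73 and 26.1 under LHFD in PEM, and at 3.28 to 5.08 and 2.39 to 3.31 in SOL. LHFD_PEM 4 lay just below the lowest PEM control, far above the other 3 of its group. DGAT2 fell by 1.64 in PEM (adjusted p = 0.00168), and the difference of 1.21 (0.42 to 2.0, adjusted p = 0.535) became 1.63 (adjusted p = 0.0046) without LHFD_PEM 4. The GPAT3 call was lost without LHFD_SOL 1, 2 or 3 or CONT_SOL 1, 3 or 4 (up to 0.0824). Of the 17 genes of this group tested, 3 fell in PEM and 1 in SOL.

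CPT1A, which commits fatty acids to mitochondrial oxidation, was the 1 call among 24 oxidation and fuel switch genes. It was at 23.9, 17.2, 23.3 and 20.4 FPKM under CONT and 6.16, 4.77, 6.80 and 11.4 under LHFD in PEM, and at 6.02 to 9.91 and 4.25 to 8.51 in SOL. PEM under LHFD lay in or near the SOL range. CPT1A fell by 1.47 in PEM (adjusted p = 0.00152), with −0.18 in SOL and a difference of 1.29 (0.59 to 1.99, adjusted p = 0.338). Of 21 cholesterol synthesis and uptake genes, none was called in either muscle at the adjusted threshold (1 higher and 1 lower in PEM without both PEM libraries that stood apart), and 2 had an unadjusted p of the difference under 0.05.

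Among 17 PPAR, PGC-1 and ERR regulators and AMP kinase subunits, different members were called in the muscles. The calls were 2 rises in SOL, and 1 rise and 2 falls in PEM. After quantile normalization no fall in PEM was called, and with no expression filter no member was called in PEM. Over the 16 fits that left out 1 library, the falls in PEM numbered 0 to 2. PPARA, a fatty acid receptor, was at 2.84, 2.46, 4.86 and 6.41 FPKM under CONT and 11.9, 9.89, 15.2 and 10.8 under LHFD in SOL, and at 0.786 to 2.23 and 1.90 to 2.65 in PEM. The diets were apart in SOL. PPARA rose by 1.39 in SOL (adjusted p = 0.0202), with 0.53 (−0.04 to 1.09) in PEM and a difference of 0.86 (0.06 to 1.66, adjusted p = 0.818). The call was lost without LHFD_SOL 1 or 3 or CONT_SOL 1 or 2 (up to 0.089). In PEM, PPARD, another fatty acid receptor, fell by 0.98 (adjusted p = 0.0319) and ESRRB, an estrogen-related receptor, rose by 0.77 (adjusted p = 0.0303), with −0.19 and −0.09 in SOL. Each PEM call was lost on leaving out single libraries, LHFD_PEM 1 or 3 or CONT_PEM 1, 3 or 4 for PPARD and any LHFD_PEM library or CONT_PEM 1 or 3 for ESRRB (up to 0.118). Without both PEM libraries that stood apart, ESRRB had an adjusted p of 0.0503.

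Of 27 insulin and amino acid signalling genes, 5 fell and 1 rose in PEM and 1 rose in SOL. The falls in PEM numbered 3 after quantile normalization, 2 with no expression filter and 2 to 5 over the fits that left out 1 library. The rise in SOL was not called with a pseudocount of 0.1, with no expression filter or with the 16 libraries alone. IRS1, an adaptor of the insulin receptor, fell by 1.14 in PEM (adjusted p = 0.0055), with −0.60 in SOL (adjusted p = 0.293). INSR, the receptor, fell by 0.74 in PEM (adjusted p = 0.0297; SOL 0.15), a call lost without LHFD_PEM 1, 3 or 4 or CONT_PEM 1 or 3 (up to 0.119). SLC2A12, a glucose transporter, rose by 0.88 in SOL (adjusted p = 0.0445; PEM 0.35), a call lost without any 1 of 11 libraries (up to 0.144).

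Of 32 proteolysis, autophagy and glucocorticoid response genes, 5 fell and 1 rose in PEM, and none was called in SOL. Without both PEM libraries that stood apart, 3 fell and none rose in PEM, and 1 rose in SOL. GLUL, glutamine synthetase, was at 177, 51.7, 319 and 129 FPKM under CONT and 31.6, 73.6, 34.4 and 30.3 under LHFD in PEM. SOL libraries held 24.9 to 31.3 and 32.0 to 49.4, every LHFD library above every control. The PEM diets overlapped through CONT_PEM 2 and LHFD_PEM 2. GLUL fell by 1.79 in PEM (adjusted p = 0.00754), with 0.42 in SOL and a difference of 2.21 (1.08 to 3.35, adjusted p = 0.268), which was 2.69 (adjusted p = 0.0148) without CONT_PEM 2. ASB2, a ubiquitin ligase adaptor, fell by 1.93 in PEM (adjusted p = 0.00233), with −1.2 in SOL (adjusted p = 0.109).

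FKBP5, a glucocorticoid-induced chaperone, had similar estimates in both muscles. In SOL it was at 20.6, 15.7, 18.3 and 42.2 FPKM under CONT and 72.9, 93.6, 214 and 78.1 under LHFD. PEM libraries held 30.3, 5.36, 53.4 and 50.4 under CONT and 163, 288, 107 and 77.0 under LHFD. CONT and LHFD values were apart in both muscles. FKBP5 rose by 2.37 in PEM (adjusted p = 0.0124), and its SOL change of 2.16 (1.01 to 3.31) had an adjusted p of 0.0732. The PEM call had an adjusted p of 0.0551 without LHFD_PEM 2 and 0.0586 without both PEM libraries that stood apart, when the SOL change passed (adjusted p = 0.0204).

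Connective tissue genes and fibroblast markers had differences of the same sign. Of 28 extracellular matrix genes, 2 rose in PEM, THBS1 by 1.47 (adjusted p = 0.0224) and TIMP3 by 1.07 (adjusted p = 0.024), and none was called in SOL. The median difference was −0.41, with a negative sign in 27 of 28, against 4999 of 10944 over all genes. It was also −0.41 without both PEM libraries that stood apart, but −0.18 without LHFD_PEM 1 and −0.65 without CONT_PEM 2, the extremes of the fits that left out 1 library. Both calls were lost on leaving out single PEM libraries, LHFD_PEM 2 or 4 or CONT_PEM 3 or 4 for THBS1 and LHFD_PEM 1, 2 or 3 or CONT_PEM 1 or 3 for TIMP3 (up to 0.0879). All 12 fibroblast markers had a negative difference, with a median of −0.38 and 0 called. Their median was −0.25 without both of those libraries, −0.06 without LHFD_PEM 1 and −0.72 without LHFD_PEM 4, the latter pair being the extremes. Their mean levels were 2.65 to 4.04 in CONT and 2.67 to 4.52 in LHFD libraries of PEM, highest in the pair that stood apart, and 3.57 to 4.33 in SOL. Their part in the matrix result was not tested.

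**Figure D5:**
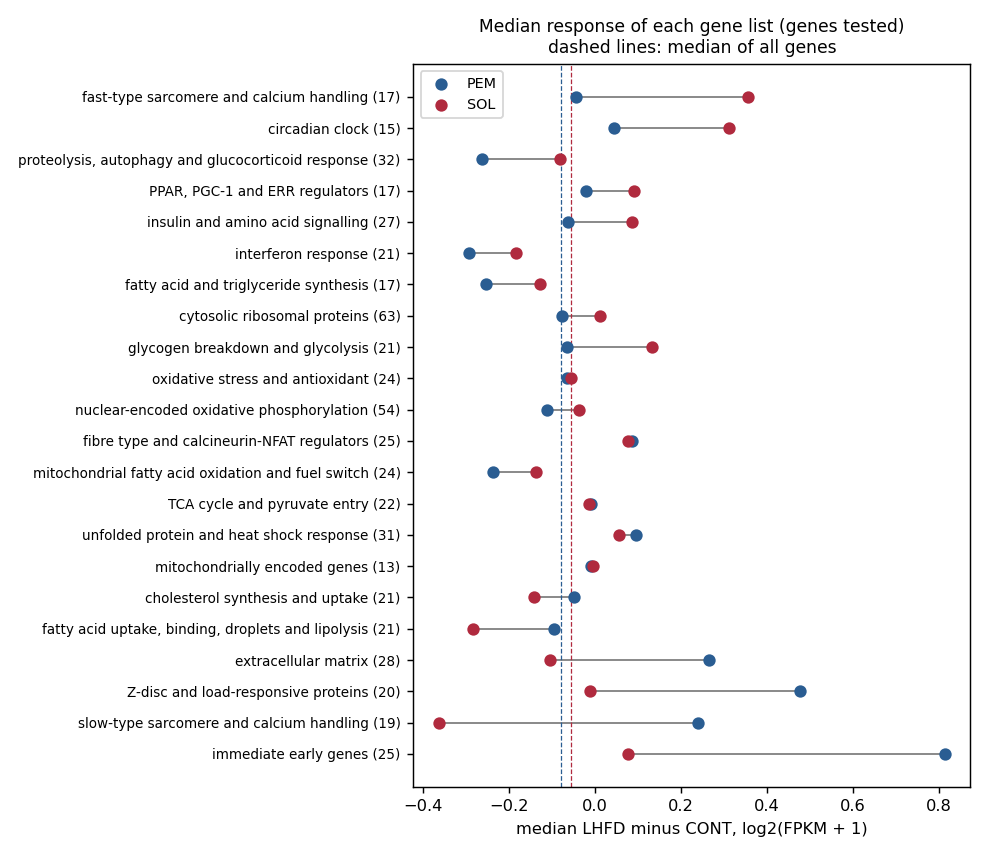
Median change from CONT to LHFD in PEM and SOL of 22 gene lists, on log2(FPKM + 1), with the number of genes tested in brackets and dashed lines at the medians of all genes. The widest gaps are those of the immediate early, slow-type sarcomere, Z-disc, fast-type sarcomere and extracellular matrix lists, and the mitochondrial lists have nearly equal medians.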

How the data were processed

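Per the labels' protocols, the authors trimmed reads with fastp, mapped them with HISAT2 to the chicken genome GRCg6a and quantified them with StringTie v1.3.3b, and they deposited 1 FPKM value per gene and library. Cufflinks and DESeq2 stand in the submitters' processing notes with no role or version. Each FPKM is a share of its library, so abundant genes that rise make the others fall. Counts were not used here and depth is unknown, so the precision of low values is known only from the spread between libraries.

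Of 20780 genes, 10944 that reached 1 FPKM in 4 or more of 24 libraries were tested by limma 3.58.1 (R 4.3.3) on log2(FPKM + 1), with a variance trend and 1 mean for each of 6 groups (18 residual degrees of freedom). The threshold was an adjusted p of 0.05, two-sided. The contrast was tested on simulated data with known changes. Groups came from the sample labels. The members and the 32 gene lists were chosen with earlier results of these data known. A further sheet names 30 libraries without values.

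The genes named by rank carry a symbol and average 5 FPKM or more in 1 group or more. They were the 8 smallest p of the difference in each direction, since none was called, the 10 shared genes of largest smaller change, those opposite at an unadjusted p under 0.05, and the 5 largest rises and falls per muscle. Without a rule on level, up to 5 members of each list with the smallest p and called members of lists were also named. Of the other genes called in both muscles, PER3, CIART, FOXO6 and PLPP3 were named after their values were seen.

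Alternatives were quantile normalization, equal sums over nuclear-encoded genes, a pseudocount of 0.1, no expression filter, the 16 libraries alone, no variance trend, the replicate number as a block, leaving out CONT_PEM 2 and LHFD_PEM 1 together, and leaving out each library in turn. Genome coordinates and sequences were not used here.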

Additional observations from a re-analysis of the deposited data

Results flagged for a closer look

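In each group of 4 libraries, the highest or lowest library of the 84 genes named was compared with its group by Dixon's gap ratio on the log2 scale. Of 336 groups, 17 (5.06%) passed the 95% critical value, where chance alone gives about 1 in 20 groups, so single cases carry little weight. Explanations were not tested.

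In the control SOL group, CONT_SOL 4 was the high library for PRKAG2 (17.5 FPKM against 6.57 to 7.28), TET2 (6.17 against 1.11 to 1.22) and ADAMTS9 (7.68 against 5.35 to 5.61) and the low one for XIRP1 (40.4 against 76.3 to 84.8). CONT_SOL 1 was low for NR1D2 (8.06 against 11.1 to 11.8) and high for ALPK1 (1.29 against 0.599 to 0.692), and CONT_SOL 2 was low for ANK2 (4.04 against 8.11 to 9.04). In the LHFD group of SOL, ADAMTS9 was at 4.74 FPKM in LHFD_SOL 4 against 4.43 to 4.47.

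In the control PEM group, CONT_PEM 4 was high for RRAD (19.0 FPKM against 0.353 to 1.07) and DUSP8 (34.4 against 7.52 to 8.85). CONT_PEM 2 was low for PPARD (7.91 against 21.6 to 24.9) and high for FOSL2 (2.83 against 1.27 to 1.39), and CONT_PEM 3 was high for GADD45G (63.6 against 8.18 to 11.6). Under LHFD in PEM, LHFD_PEM 4 was high for DGAT2 (26.1 against 6.73 to 8) and NR4A1 (152 against 99.1 to 104), LHFD_PEM 2 for GLUL (73.6 against 30.3 to 34.4) and LHFD_PEM 1 for PLPP3 (11.4 against 7.86 to 8.28).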

How the results depend on the processing

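The count of 0 genes with a called difference between muscles became 2 after quantile normalization and 8 without CONT_PEM 2 and LHFD_PEM 1 together, and it ranged from 0 to 9 over the 16 fits that left out 1 library, 9 of them without CONT_PEM 2. By library, 3 passed without CONT_SOL 4, 3 without CONT_PEM 4, 2 without LHFD_PEM 4, 1 each without LHFD_SOL 4, CONT_SOL 2 and LHFD_PEM 2, and none without the other 9. The 57 SOL calls became 110 after quantile normalization, 27 with a pseudocount of 0.1 and 92 without both PEM libraries, and ranged from 16 (without CONT_SOL 1) to 70 (without CONT_PEM 2). The 760 PEM calls ranged from 393 (without LHFD_PEM 2) to 953 (without CONT_PEM 2), and were 402 without CONT_PEM 3 and 446 without CONT_PEM 1. The 25 shared genes became 46 after quantile normalization, of which 18 were among the 25, and ranged from 10 to 28. The 54 list genes called in either muscle ranged from 36 to 68. Over the genes tested by name no result reversed. Of 528 values of the difference 21 passed the threshold, of 720 SOL calls 165 and of 840 PEM calls 66 fell short of it. The cause of these changes was not tested.

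With the replicate number as a block, 1 difference passed (ENSGALG00000051520, adjusted p = 0.000108), and the calls were 59 in SOL, 755 in PEM and 25 in both, with a consensus correlation of 0.0286 for the calls within muscles. Same-numbered SOL and PEM libraries deviated together in CONT (correlation 0.163 to 0.295) and SHFD, the 15-day group (0.0749 to 0.362), each highest for the same number in 4 of 4. In LHFD the correlation was −0.119 to 0.0944 and highest for the same number in 1 of 4, while SOL 2, 3 and 4 correlated best with PEM 1, 2 and 3 (0.242, 0.331 and 0.331). Not every pair exceeded 0.1 and no label ties a number to a bird, so the numbers were not taken to pair the samples, although per the labels both muscles came from the same birds. With 4 libraries a group and unknown depth, differences under about 1 on the log2 scale were often not detectable.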
